A study of Homo sapiens with 4 samples.

Results

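The genes that build ribosomes were measured in HCT116 cells, a human colorectal carcinoma line, under replicative stress and HDAC inhibition. They were taken by symbol: all named genes of the RNA polymerase I subunits and of the NOP, UTP, NOL, NOC, RRP, RPF, TSR, GNL and RIOK families, together with single factors such as NAT10, LTV1, NOB1 and PNO1 and the WD-repeat genes WDR12, WDR36, WDR43, WDR74 and WDR75. The rule takes genes by name, although it was written with earlier results of these data known. It found 52 genes among the 14884 named genes of the array, and 47 of them passed the filter on dim genes, which kept 7649 genes with a mean intensity of at least 90.5. The cells were left untreated or received 1 mM hydroxyurea for 24 h, which blocks ribonucleotide reductase and thereby stalls DNA replication, 2 µM MS-275 for 24 h, which inhibits class I histone deacetylases (HDAC1 to HDAC3), or both agents together. All 4 conditions are the same cell line with no transgene or deletion in the labels, and each was hybridised to 1 Affymetrix GeneChip Human Gene 2.0 ST array. No difference therefore has a replicate error, none was tested and no p-value is given. The counts and medians below describe these 4 arrays. Values are RMA intensities on a linear scale, and differences are log2 ratios of 2 arrays. Where 4 intensities follow each other without labels, they stand for untreated, hydroxyurea, MS-275 and MS-275/hydroxyurea.

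Ribosome production starts in the nucleolus, where RNA polymerase I transcribes the precursor of the large ribosomal RNAs. Small nucleolar ribonucleoproteins modify this precursor, the small subunit processome folds and cleaves its first part, and separate sets of assembly factors and GTPases build the large subunit. The late small subunit particles are finished in the cytoplasm. The genes of this pathway are known targets of the transcription factor MYC and are strongly expressed in growing tumour cells.

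In these cells most of the genes were lower with MS-275, by small amounts. Of the 47 genes, 36 (76.6%) were lower with MS-275 both without and with hydroxyurea at any size of difference, against 38.8% of all genes past the filter. Only RIOK3, POLR1F and GNL2 were higher in both comparisons, 6.38% of the 47 genes against 37.7% of all genes, and GNL2 by no more than 0.01 on the log2 scale. The comparisons of MS-275 with untreated cells and of MS-275/hydroxyurea with hydroxyurea alone share no array. Their median log2 differences were -0.20 and -0.28 over the 47 genes, and -0.01 and 0.00 over all genes. For hydroxyurea the medians were -0.07 without and -0.07 with MS-275, against 0.01 and 0.03 over all genes. With both agents together the median difference from untreated cells was -0.34, against 0.01. In bulk RNA, fewer cells with a transcript and less of it per cell cannot be told apart.

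**Figure D1:**
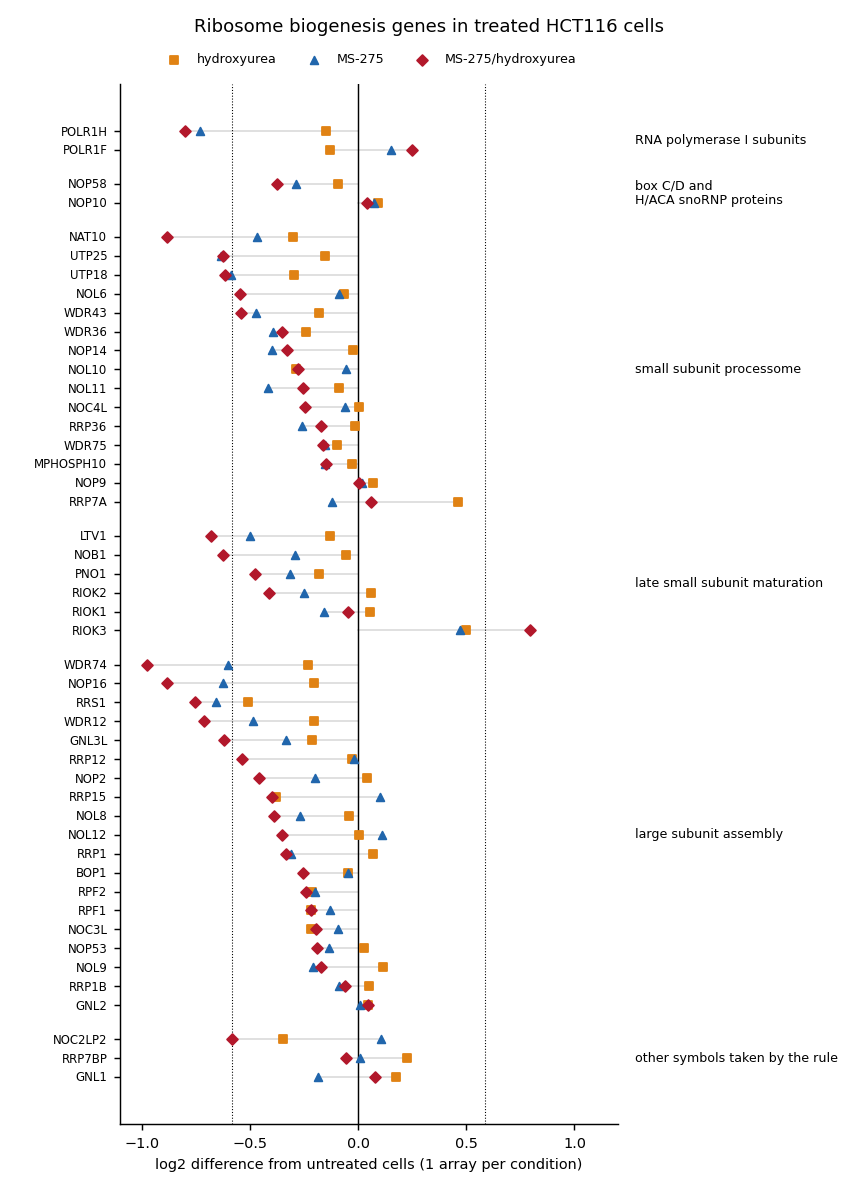
Each row is a gene past the filter, and symbols give its log2 difference from untreated cells with hydroxyurea (squares), MS-275 (triangles) and MS-275/hydroxyurea (diamonds), each from 1 array, ordered by role. Dotted lines mark 1.5-fold. With both agents 40 of 47 genes lie below 0 (85.1%, against 48.8% of all genes), and RIOK3 lies farthest to the right at 0.80.

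A difference of 1.5-fold was rare. With MS-275 alone, 6 of the 47 genes were lower by that much, NOP16, POLR1H, RRS1, UTP18, UTP25 and WDR74 (12.8%, against 6.84% of all genes), and 0 were higher (6.94% of all genes). In the presence of hydroxyurea, 3 genes were lower with MS-275, NOP16, POLR1H and WDR74 (6.38%, against 5.41%), and 0 were higher (8.67% of all genes). These 3 genes were therefore lower in both backgrounds (6.38%, against 2.92%), and 0 were higher in both (4.85% of all genes). Among the 34 genes past a stricter filter, an intensity of 238.5, 2 were lower with MS-275 alone (5.88%, against 7.85%) and 0 in both backgrounds, since 4 of the 6 genes lie below that intensity. Renewed quantile normalization left 4 genes lower with MS-275 alone (8.51%, against 6.24%) and 2 in both backgrounds (4.26%, against 2.80%), and a pseudocount of 32 left 2 (4.26%, against 4.88%) and 0 (2.03% of all genes).

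POLR1H encodes a small RNA polymerase I subunit that takes part in transcript cleavage. Its intensity was 221 untreated, 199 under hydroxyurea, 133 under MS-275 and 127 under both. The 2 arrays with MS-275 were the low ones and lay well below the others. MS-275 went with a 1.66 times lower value in the absence of hydroxyurea and a 1.58 times lower one in its presence. NOP16, a nucleolar factor of the large subunit, gave 216, 187, 139.9 and 117. Its value was lower by a ratio of 1.54 for MS-275 against no drug and of 1.60 in hydroxyurea-treated cells. WDR74, which works with the AAA ATPase NVL on large subunit precursors, had intensities of 325, 277, 214 and 165. Here the array with both agents was lowest, 1.97 times below untreated cells, which was the largest difference among the 47 genes.

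The promoters of these 3 genes are shown because the genes were lower by 1.5-fold in both MS-275 comparisons, and those of RIOK3 and GNL2 because they were the highest and the least changed genes with MS-275 by the smaller of the 2 differences. Each run is RefSeq sequence of GRCh38.p14 from 250 bases before to 50 bases after the gene's start, and capitals mark the motifs searched. These were the E-box CACGTG, which MYC with its partner MAX and other basic helix-loop-helix factors bind, the ETS core CCGGAA and the GC box GGGCGG, on either strand. CACGTG reads the same on both strands, and the letters searched on the opposite strand for the others are TTCCGG and CCGCCC.
POLR1H promoter, chr6:30061015-30061314, plus strand: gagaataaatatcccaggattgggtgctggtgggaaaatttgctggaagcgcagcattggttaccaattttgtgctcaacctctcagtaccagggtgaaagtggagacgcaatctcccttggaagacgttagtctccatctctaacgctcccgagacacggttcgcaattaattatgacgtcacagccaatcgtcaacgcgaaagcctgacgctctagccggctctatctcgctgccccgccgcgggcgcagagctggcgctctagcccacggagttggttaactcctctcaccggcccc
NOP16 promoter, chr5:176388549-176388848, minus strand: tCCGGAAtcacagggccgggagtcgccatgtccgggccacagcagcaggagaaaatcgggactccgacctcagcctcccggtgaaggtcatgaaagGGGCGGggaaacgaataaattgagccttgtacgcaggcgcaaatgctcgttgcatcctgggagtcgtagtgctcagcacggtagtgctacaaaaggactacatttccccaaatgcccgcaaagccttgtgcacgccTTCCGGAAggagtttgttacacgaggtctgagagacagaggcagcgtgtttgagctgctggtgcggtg
WDR74 promoter, chr11:62839541-62839840, minus strand: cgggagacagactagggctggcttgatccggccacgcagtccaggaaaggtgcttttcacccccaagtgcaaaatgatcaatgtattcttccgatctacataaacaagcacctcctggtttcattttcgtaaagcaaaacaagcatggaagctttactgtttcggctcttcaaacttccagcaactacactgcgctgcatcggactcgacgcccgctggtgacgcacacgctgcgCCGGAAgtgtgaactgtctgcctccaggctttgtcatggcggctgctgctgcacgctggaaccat
RIOK3 promoter, chr18:23453037-23453336, plus strand: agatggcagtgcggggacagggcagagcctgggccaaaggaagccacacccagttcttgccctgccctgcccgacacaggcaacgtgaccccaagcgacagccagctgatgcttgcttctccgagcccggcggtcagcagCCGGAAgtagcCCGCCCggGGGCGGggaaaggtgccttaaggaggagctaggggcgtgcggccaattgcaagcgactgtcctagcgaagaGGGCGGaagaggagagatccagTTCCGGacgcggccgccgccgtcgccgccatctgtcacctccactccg
GNL2 promoter, chr1:37595888-37596187, minus strand: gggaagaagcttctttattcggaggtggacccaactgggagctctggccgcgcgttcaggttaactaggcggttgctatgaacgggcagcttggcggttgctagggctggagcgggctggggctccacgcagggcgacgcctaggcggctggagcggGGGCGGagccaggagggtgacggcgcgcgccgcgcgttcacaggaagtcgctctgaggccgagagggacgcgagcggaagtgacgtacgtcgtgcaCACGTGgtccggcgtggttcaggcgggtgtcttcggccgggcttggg

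The window of POLR1H held none of the 3 motifs. NOP16 had 3 ETS matches, of which a pair overlapped at positions -18 and -16 before the start, and 1 GC box. WDR74 had 1 ETS match at -15. RIOK3 had 2 ETS matches and 3 GC boxes, and GNL2 had 1 GC box and 1 E-box at position 4. Lower and higher genes thus both carried ETS matches.

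Promoter sequences were matched for 37 of the 47 genes. An E-box stood in 14 of these 37 windows (37.8%), against 10.2% of the 6108 matched promoters of all genes past the filter and 7.43% of all 27305 promoters. An ETS core was found in 17 windows (45.9%), against 30.7% of the genes past the filter and 17.6% of all promoters, and a GC box in 24 (64.9%), against 73.7% and 44.6%. The E-boxes of 5 genes are printed with 10 bases on either side. LTV1, UTP25, NAT10 and WDR43 were among the 8 lowest with MS-275 by the smaller of the 2 differences, and GNL2 was the least changed. The rest of these 8, POLR1H, NOP16, WDR74 and WDR12, had no E-box in their windows, and the first 3 named were the lowest of all. Capitals mark the E-box.
LTV1 E-box, chr6:143843356-143843381, plus strand: cctggggctgCACGTGtggtgaggcc
UTP25 E-box, chr1:209827976-209828001, plus strand: tcagcgagccCACGTGcttgtgttga
NAT10 E-box, chr11:34105604-34105629, plus strand: tgcgcttgcgCACGTGctgtctacca
WDR43 E-box, chr2:28894660-28894685, plus strand: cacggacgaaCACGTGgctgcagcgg
GNL2 E-box, chr1:37595919-37595944, minus strand: acgtcgtgcaCACGTGgtccggcgtg

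The first base of the E-box was at position 29 in LTV1, 15 in UTP25, -15 in NAT10, 4 in WDR43 and 4 in GNL2, with the first transcribed base as position 1. The 14 genes with an E-box had a median log2 difference of -0.29 with MS-275 alone, from -0.64 to 0.07, and the 23 genes without had -0.21, from -0.73 to 0.47. With hydroxyurea present, the medians were -0.33 and -0.25. For both agents against untreated cells they were -0.47, from -0.88 to 0.08, and -0.25, from -0.97 to 0.80. In each comparison the 2 ranges overlapped. A match of letters describes the sequence and is no measurement of binding.

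**Figure D2:**
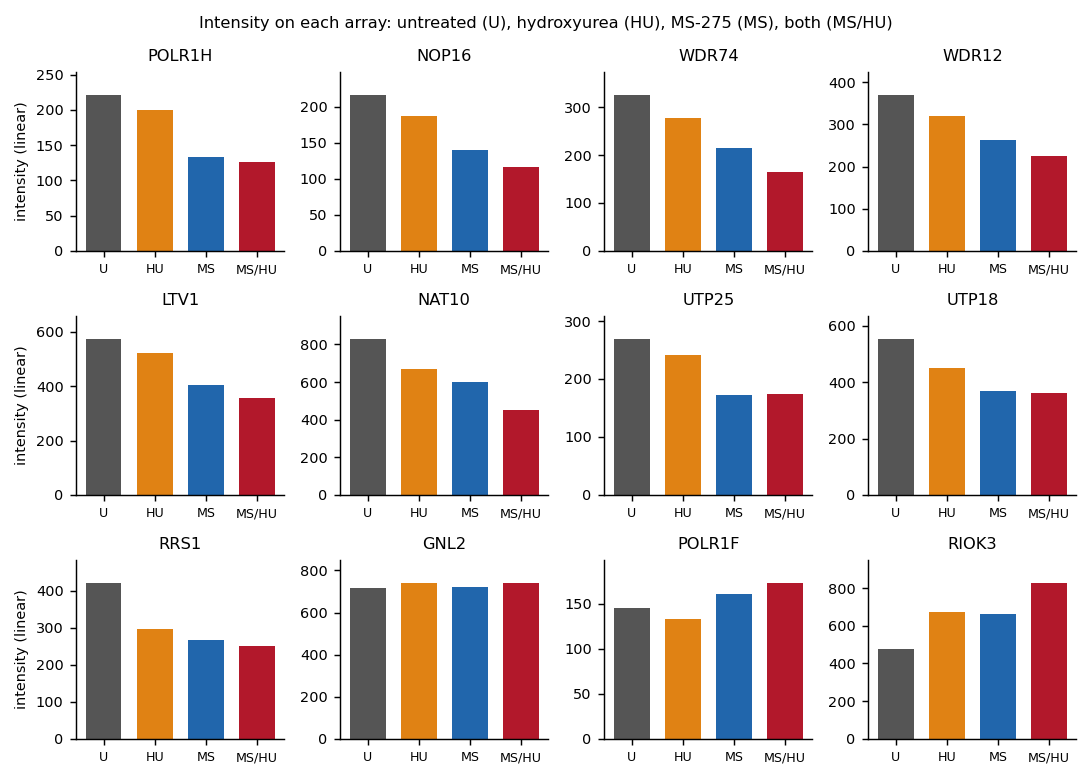
Bars give the linear RMA intensity of 12 genes on the arrays of untreated cells (U), hydroxyurea (HU), MS-275 (MS) and MS-275/hydroxyurea (MS/HU), 1 array each, with axes that start at 0. In 8 of the panels the bars get shorter from U to MS/HU, GNL2 is level and RIOK3 is lowest in untreated cells.

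Both RNA polymerase I subunits with a named cluster were measured, and they differed in direction with MS-275. POLR1F, a stalk subunit that contacts the initiation factor RRN3, had intensities of 145 untreated, 133 under hydroxyurea, 161 under MS-275 and 173 under both. Its log2 differences with MS-275 were 0.15 without and 0.38 with hydroxyurea, where those of POLR1H were -0.73 and -0.66. The other subunits were not analysed here.

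Of the snoRNP proteins, NOP58, a core protein of the box C/D particles that guide ribose methylation, was below its level without the inhibitor. The intensity was 1766 untreated, 1654 under hydroxyurea, 1447 under MS-275 and 1361 under both, and the log2 differences with MS-275 were -0.29 without and -0.28 with hydroxyurea. NOP10, a core protein of the H/ACA particles that guide pseudouridylation, stayed between 531 and 567 on all 4 arrays.

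The small subunit processome was represented by 15 genes, of which 14 were below 0 with MS-275 in each background (93.3%, against 51.3% of all genes without and 49.9% with hydroxyurea), with medians of -0.26 and -0.25. UTP25 and UTP18 passed 1.5-fold with MS-275 alone. UTP25 had intensities of 269 untreated, 241 under hydroxyurea, 173 under MS-275 and 174 under both, so that hydroxyurea added to MS-275 made a log2 difference of 0.01. UTP18, a subunit of the UTP-B complex, had 553, 449.99, 368 and 361. It was just inside 1.5-fold with MS-275, at -0.59, and at -0.32 with hydroxyurea present. WDR36, also of UTP-B, had 1212, 1025, 922 and 950.5. WDR43, a subunit of the UTP-A complex that links pre-rRNA transcription and processing, was at -0.47 and -0.36. Its UTP-A partners NOL11 and WDR75 were at -0.42 and -0.17, and at -0.15 and -0.06.

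NAT10, the acetyltransferase that modifies cytidines of the small subunit rRNA, had the lowest log2 difference of the processome genes with both agents, -0.88. The intensities were 828, 671, 598 and 449, each lower than the one before. It was 1.84 times lower with both agents than in untreated cells. NOL6, a subunit of the UTP-C complex, had 325, 310.0, 305 and 222, so that the array with both agents stood apart. RRP7A, another UTP-C gene, was unlike the others with hydroxyurea, at 394 against 286 in untreated cells. It has a related pseudogene, RRP7BP, with intensities of 178, 209, 179.7 and 172, and array probes may not separate the pair. NOP9 was nearest to no change, between 208 and 218, and MPHOSPH10, a protein of the U3 particle, was at -0.15 and -0.12 with MS-275.

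Late small subunit maturation held 6 genes, and 5 of them were below 0 with MS-275 in each background (83.3%, against 51.3% and 49.9% of all genes). LTV1, which guides the export of small subunit precursors, had intensities of 573 untreated, 524 under hydroxyurea, 406 under MS-275 and 357 under both. NOB1, the endonuclease that makes the final cut of the small subunit rRNA, had 2254, 2165, 1841 and 1461. Its partner PNO1 had 340.02, 299.6, 274 and 244. All 3 genes were lowest with MS-275/hydroxyurea.

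The RIO kinases, atypical kinases that act on late small subunit precursors, differed in direction. RIOK3 had an intensity of 476 untreated, 672 under hydroxyurea, 660.3 under MS-275 and 826 under both. Each agent was accompanied by a higher value, 1.41-fold for hydroxyurea and 1.39-fold for MS-275, and both together by 1.74-fold. RIOK3 is also known from antiviral signalling and is not confined to ribosome assembly. RIOK2 was lower with MS-275, at -0.25 without and -0.47 with hydroxyurea, and RIOK1 was at -0.16 and -0.10.

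Large subunit assembly was the largest group, with 20 named genes of which 19 passed the filter. With MS-275, 16 of the 19 were below 0 without hydroxyurea (84.2%, against 51.3% of all genes) and 17 with it (89.5%, against 49.9%), with medians of -0.20 and -0.28. RRS1, which with RPF2 brings a small rRNA into the large subunit, had intensities of 421 untreated, 296 under hydroxyurea, 266 under MS-275 and 249.7 under both. All 3 treated arrays were thus far below the untreated one, while MS-275 added to hydroxyurea made a log2 difference of -0.24 and hydroxyurea added to MS-275 one of -0.09. RPF2 had 932, 805, 811 and 788, the same pattern at a smaller size. WDR12 and BOP1, which form the PeBoW complex with PES1, differed. WDR12 had 369, 319.9, 264 and 225, and BOP1 had 1189, 1149.97, 1152 and 997.

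The nucleolar GTPases differed as well. GNL3L, a relative of nucleostemin, had intensities of 538 untreated, 464 under hydroxyurea, 427 under MS-275 and 349 under both, whereas GNL2, which prepares large subunit precursors for export, stayed between 716 and 739. NOP2, which methylates a cytosine of the large subunit rRNA, was at -0.20 with MS-275 alone and at -0.50 with hydroxyurea present. RRP12, known in yeast as an export factor of both subunits, was at 438, 429 and 432 on 3 arrays and at 302 with MS-275/hydroxyurea. RRP1B was at -0.09 and -0.11 with MS-275.

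**Figure D3:**
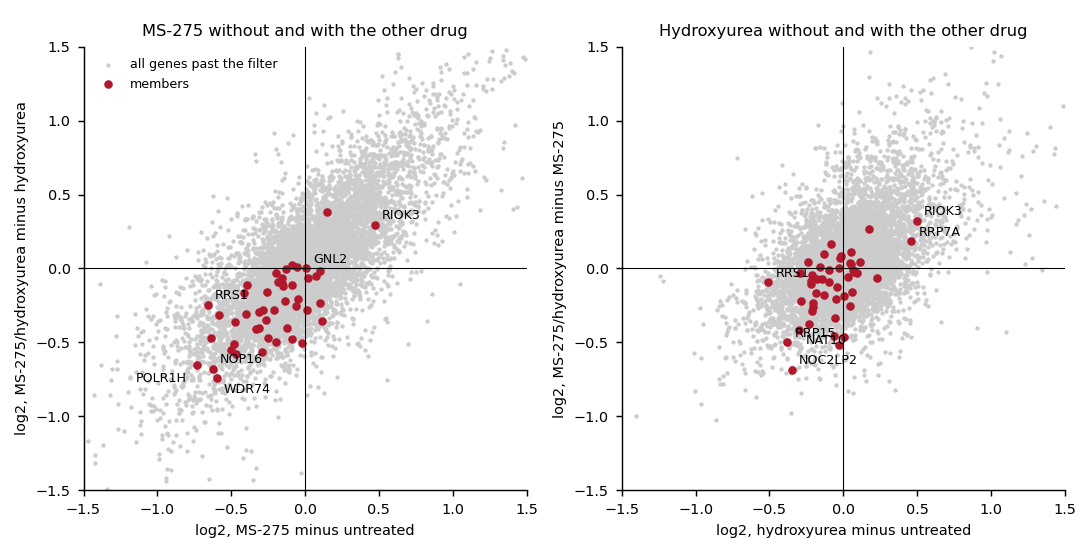
Left, log2 differences with MS-275 without (horizontal) and with hydroxyurea (vertical). Right, those with hydroxyurea without (horizontal) and with MS-275 (vertical). Grey points are all 7649 genes past the filter, shown within 1.5 on either axis, and red points are the 47 ribosome biogenesis genes, of which 36 lie below 0 on both axes of the left panel.

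Hydroxyurea alone was accompanied by no 1.5-fold difference among the 47 genes. The counts were 0 higher and 0 lower, where 3.12% of all genes were higher and 1.27% lower. Added to MS-275, hydroxyurea went with a lower value of 1 gene, NOC2LP2 (2.13%, against 1.03%), and a higher value of 0 (4.84% of all genes). In both backgrounds 0 genes were 1.5-fold higher (1.36% of all genes) and 0 lower (0.275%). At any size, 24 genes (51.1%) were lower with hydroxyurea in both backgrounds, against 29.4%. RRP15, a factor of the large subunit, had the lowest values by the smaller of its 2 differences, with 240.3 untreated, 185 under hydroxyurea, 258 under MS-275 and 183 under both. The 2 arrays with hydroxyurea were low whether or not MS-275 was present. NOL10 showed the same split in its brighter cluster, with 553 and 532 without hydroxyurea and 453 and 456 with it. By the same measure, RIOK3 and RRP7A were the highest with hydroxyurea, at 0.50 and 0.46 without and 0.32 and 0.18 with MS-275. GNL1, RIOK1, NOL9, GNL2 and RRP1B were the other genes above 0 in both backgrounds, none of them past 0.26, which GNL1 reached with MS-275 present. Among the lower ones, NAT10 was at -0.30 and -0.41, WDR74 at -0.23 and -0.37, and WDR12, NOP16 and GNL3L lay between -0.29 and -0.20.

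With both agents the lower genes were most numerous. Relative to untreated cells, 11 of the 47 genes had 1.5-fold lower values (23.4%, against 6.84%) and 1, RIOK3, was higher (2.13%, against 11.7%). The 11 genes were WDR74, NOP16, NAT10, POLR1H, RRS1, WDR12, LTV1, UTP25, NOB1, GNL3L and UTP18. They came from each role group but the snoRNP proteins and the other symbols taken by name, GNL1, NOC2LP2 and RRP7BP. UTP18 lay nearest to 1.5-fold among the 11 genes, at -0.61, and NOC2LP2, at -0.58, was nearest outside. Among the 34 genes past the stricter filter, 7 were lower (20.6%, against 7.80%). The array with both agents was the lowest of the 4 for 29 of the 47 genes (61.7%, against 25.2%), and that of untreated cells was the highest for 28 (59.6%, against 25%). The order from highest to lowest was untreated, hydroxyurea, MS-275 and both agents in 16 genes (34.0%, against 9.39%). A deviation of the MS-275/hydroxyurea array or culture as a whole cannot be told apart from an effect of the combination. The same holds for a deviation of the single untreated array or culture, which enters every difference from untreated cells.

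On the median gene the differences with each agent nearly added up on the log2 scale. The difference with both agents minus the sum of those with each alone had a median of -0.05 over the 47 genes and of 0.02 over all genes. The role groups differed in direction. The median was 0.09 over the 15 processome genes, of which 5 were below 0 (33.3%, against 45.8% of all genes). Over the 19 large subunit genes it was -0.08, and 15 were below 0 (78.9%). Single genes lay farther from 0 than these medians. RRS1 was the highest, at 0.41, and WDR36, UTP18 and NOL11 followed at 0.29, 0.27 and 0.25. RRP12 was the lowest at -0.49, with NOL12 at -0.47, NOL6 at -0.39 and NOC2LP2 at -0.34. NOL12, a nucleolar exonuclease, had 169 untreated, 169.6 under hydroxyurea, 183 under MS-275 and 132 under both.

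Other genes of the pathway, which the choice by symbol left out, were measured alongside. Of 19 further small subunit factors past the filter, 18 were below 0 with MS-275 alone (94.7%, against 51.3% of all genes) and 15 with hydroxyurea present (78.9%, against 49.9%), with medians of -0.21 and -0.26. DIMT1, which dimethylates adenosines of the small subunit rRNA, passed 1.5-fold with MS-275 alone, and DIMT1, DHX33 and EMG1 passed it with hydroxyurea present, all in the lower direction (6.84% and 5.41% of all genes). DIMT1 had intensities of 406 untreated, 375 under hydroxyurea, 248 under MS-275 and 228 under both. Of 26 further large subunit factors, 3 were 1.5-fold lower with MS-275 alone (6.84% of all genes) and 5 with hydroxyurea present (5.41%), and 0 were higher (6.94% and 8.67%), with medians of -0.29 and -0.13. NIP7, whose product takes part in pre-rRNA processing, had the lowest log2 difference of this list with MS-275 alone, -0.91, and was at -0.75 with hydroxyurea present, just above MYBBP1A at -0.76, with intensities of 1534, 1252, 819 and 743. DDX54, an RNA helicase, was at -0.64 in each background. NVL, the other of the 3 lower with MS-275 alone, was at -0.62 there and at 0.09 with hydroxyurea present. Its intensities were 161, 156, 104 and 167. SBDS, which releases EIF6 from the new large subunit, was higher with hydroxyurea, at 896 in untreated cells and 1428 with hydroxyurea.

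In the median, the snoRNP list showed the same direction at a smaller size. Over 10 genes its medians with MS-275 were -0.14 and -0.11. At 1.5-fold, 0 were lower in either MS-275 comparison (6.84% and 5.41% of all genes) and 0 higher (6.94% and 8.67%). With 10 genes, counts of 0 are near these shares. Without hydroxyurea 8 were below 0 (80%, against 51.3% of all genes), and with it 7 (70%, against 49.9%). Fibrillarin (FBL), the methyltransferase of the box C/D particles, was at -0.07 and -0.02, whereas SHQ1 was higher, at 0.10 and 0.58. The ribosomal proteins themselves had smaller medians. Of 78 listed, 46 had a named cluster and 44 passed the filter. Over these 44 the medians were -0.03 and -0.06 with MS-275. In the 2 MS-275 comparisons 0 were 1.5-fold lower (6.84% and 5.41% of all genes) and 0 higher (6.94% and 8.67%). With both agents their median difference from untreated cells was -0.08, and 32 were below 0 (72.7%, against 48.8% of all genes). At 1.5-fold, 2 of the 44 were lower, RPL37A at -0.72 and RPL29 at -0.64, where 6.84% of all genes were lower. RPL37A had an intensity of 85.6 on the array with both agents, below the level that the filter sets for the mean.

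**Figure D4:**
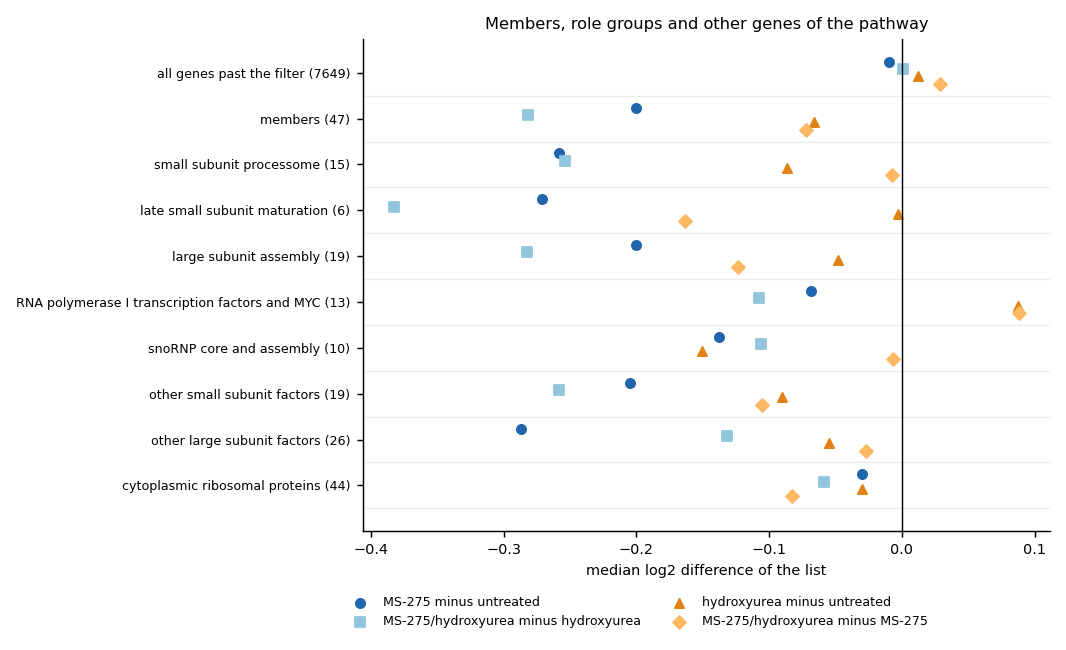
Symbols give the median log2 difference of each list, with the number of genes past the filter in brackets, for MS-275 without (circles) and with hydroxyurea (squares) and for hydroxyurea without (triangles) and with MS-275 (diamonds). The medians with MS-275 lie between -0.38 and -0.13 for the small and large subunit lists and at -0.14 and -0.11 for the snoRNP list. They lie at -0.07 and -0.11 for the RNA polymerase I and MYC list and at -0.03 and -0.06 for the ribosomal proteins.

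Of 19 listed transcription factors of RNA polymerase I, MYC partners and nucleolar regulators, 13 had a named cluster and passed the filter. Their median was -0.07 with MS-275 alone and -0.11 with hydroxyurea present, but the genes went in both directions. In each comparison 8 were below 0 (61.5%, against 51.3% and 49.9% of all genes). Among these, RRN3, TCOF1, NOLC1 and DDX21 lay between -0.53 and -0.12. The 5 genes above 0 were MAX, MXD1, MXD4, MXI1 and SIRT7, from 0.11 to 0.80. RRN3, which brings RNA polymerase I to its promoter, had intensities of 914 untreated, 975 under hydroxyurea, 635 under MS-275 and 708 under both. MYC had 632, 553, 589.6 and 389.8, at -0.10 on the log2 scale from untreated cells under MS-275 and at -0.70 under both agents. MXD1, which competes with MYC for MAX, had 131, 201, 227 and 316. It was the only 1 of the 13 genes that was 1.5-fold higher with MS-275, without and with hydroxyurea (6.94% and 8.67% of all genes). A count of 1 among 13 genes is near these shares. MXD1 was the only one with hydroxyurea alone as well (3.12% of all genes). Whether MYC or MXD1 had a part in the differences of the ribosome biogenesis genes was not tested.

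A few symbols that the choice by name took are not established assembly factors or were too dim. The pseudogenes NOC2LP2 and RRP7BP and the GTPase gene GNL1 passed the filter. NOC2LP2 had 143, 112, 154 and 95.7, and its parent NOC2L was dim, between 62.1 and 78.5. NOC2L, NOL4, NOL4L, NOL4L-DT and RRS1-DT were the 5 genes below the filter, the last 4 with intensities between 29.5 and 81.0. Of these 3 symbols, only NOC2LP2 entered a count at 1.5-fold, while GNL1 and RRP7BP entered counts at any size or of array order. Several clusters existed for 3 genes. The 8 clusters of GNL1 ranged from 194 to 240.4 in untreated cells, and 5 of them shared 1 value on the untreated array and 1 on the hydroxyurea array at 3 decimals, so they do not count as separate measurements. BOP1 had a second, dimmer cluster with a log2 difference of 0.23 with MS-275, where the brighter one was at -0.05. With hydroxyurea present they were at -0.26 and -0.21. NOL10 had a second, dim cluster, between 51.1 and 54.4. Its differences with hydroxyurea were -0.08 without and 0.04 with MS-275, where the brighter one was at -0.29 and -0.22. In the gene records, 28 of the 52 genes overlap another gene, among them POLR1H with PPP1R11, NOP16 with ARL10 and WDR74 with RNU2-2, and probe positions were not used here.

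The medians of the arrays over all clusters lay between 45.9 and 47.1. RMA brings arrays to a common distribution, so this likeness is no check of the cultures or the RNA. The epithelial markers EPCAM, KRT8, KRT18 and KRT19 were present, 4 of 8 named of the epithelial and colon list, and the summed intensity of that list ran from 3766 to 4490. CDX1, CDX2, VIL1 and LGR5 were below the filter. Of 5 named markers of other cell types, only CD68, a lysosomal protein gene, was above it, and the summed intensity of the list ran from 274 in untreated cells to 387.3 with both agents. Whether that list had a part in the differences was not tested.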

How the data were processed

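RNA of HCT116 cells was measured on 1 GeneChip Human Gene 2.0 ST array in each of 4 conditions. The deposited values are RMA intensities, which the authors computed per transcript cluster and gave on a linear scale. The program used for RMA is not given in the sources used here. Probe signals before summarisation were not used. RMA brings arrays to a common distribution, so a shift shared by all genes would not show. Of 53617 clusters, 16098 carried 1 gene symbol in the platform table, all with an Entrez ID in current gene records and 0 in need of an update. The other 37519 are unnamed here. The brightest cluster by mean log2 intensity was used for each gene, and 779 genes had several. Genes were kept whose mean reached the median of the named clusters. No pseudocount was added. Each of 5 comparisons is a log2 difference between 2 arrays, and a gene was counted at 1.5-fold.

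The members, lists and rules were chosen with earlier results of these data known. Named genes are the RNA polymerase I subunits, the 8 lowest and 8 highest members per drug by the smaller difference of the 2 backgrounds (fewer where fewer had 1 direction), the 4 highest and lowest by non-additivity, and examples of each role. The windows around E-boxes and the counts of array order were added after the values had been seen. Computation used Python 3.11.15, numpy 2.4.6, pandas 2.3.3 and matplotlib 3.10.9, and was tested on simulated data. Alternatives were no filter, a filter at the 75th percentile, the mean of clusters, median centring, quantile normalization, a pseudocount of 32, core role groups only, 2-fold and, added after the data were seen, 1.25-fold. The number of arrays limits the precision.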

Additional observations from a re-analysis of the deposited data

Results flagged for a closer look

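In 3 genes the direction with an agent differed between the 2 backgrounds by at least 0.1 on either side of 0 on the log2 scale, with 1 array per condition, and the difference was not tested. NOL12 was at 0.11 with MS-275 alone and at -0.36 with hydroxyurea present. The pseudogene NOC2LP2 was at 0.10 and -0.23. POLR1F was at -0.13 with hydroxyurea alone and at 0.10 with MS-275 present.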

How the results depend on the processing

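The medians of the 47 genes in all 5 comparisons and of their non-additivity moved by less than 0.1 under every alternative that gave one. That limit is larger than the medians for hydroxyurea and for non-additivity, so it says little about them. Median centring took the hydroxyurea medians to -0.035 without and -0.036 with MS-275. The 75th percentile filter took the median non-additivity to -0.015. Counts were less stable. Over all results and alternatives, 140 values stayed within 1.5 times of the count or 0.1 of the median reported and 28 did not. The 140 include counts of 0 that stayed at 0. Under the 75th percentile filter, the lower genes numbered 2 for MS-275 alone, 0 for MS-275 with hydroxyurea present (5.21% of all genes), 0 in both backgrounds (2.87%), 0 for hydroxyurea added to MS-275 (0.881%) and 7 for both agents. With a pseudocount of 32 they numbered 2 for MS-275 alone (4.26%, against 4.88% of all genes), 1 with hydroxyurea present (2.13%, against 3.73%), 0 in both backgrounds (2.03% of all genes) and 0 for hydroxyurea added to MS-275 (0.549%). With the core role groups only, 0 genes were lower with hydroxyurea added to MS-275. At 2-fold, 0 genes were lower or higher in any comparison. At 1.25-fold, with the share of all genes in brackets, 14 genes were lower (18.4%) and 1 higher (18%) with MS-275 alone, 18 (17.5%) and 1 (20%) with hydroxyurea present, 9 lower in both backgrounds (10.4%), 3 lower (8.46%) and 2 higher (12%) with hydroxyurea alone, 8 (6.88%) and 1 (14%) with MS-275 present, 2 lower (2.35%) and 1 higher (5.90%) in both backgrounds, and 25 lower with both agents (19.2%). The cause was not tested, but the stricter filter keeps 34 genes and a pseudocount shrinks ratios by construction. No paired analysis was possible because each condition has 1 array. Intensities near the background compress ratios.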
